A study of Mus musculus with 6 samples.

Results

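The transcripts of Cish, of the suppressors of cytokine signaling Socs1 and Socs3, and of 7 further genes of the JAK-STAT pathway were compared in follicular B cells of WT mice and of mice that lack GPR174. These 10 genes were drawn from a table of 12431 genes. Cish was chosen from its own difference between WT and KO cells in these libraries, and Socs1, Socs3, Pim1, Stat5a, Stat5b, Stat6, Il4ra, Jak1 and Jak3 were chosen by their roles with the same results known. Their WT and KO values are therefore given as a description, without p-values. Whether the fit over all genes called one of them is stated as part of that description and is no independent evidence, since the choice used the same contrast. The question was whether Cish moved together with other feedback genes of STAT5 or STAT6.

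The cells were splenic follicular B cells, labeled CD21/35- CD23+, sorted from male mice and cultured for 1 h in complete RPMI without stimulation. WT mice carried the genotype Gpr174+/Y. KO mice were Gpr174-/Y, with the receptor's protein-coding sequence exchanged for a tdTomato reporter. Gpr174 is X-linked and encodes a receptor that couples to G proteins. The allele is present in every cell of the animal and not in B cells alone, and the mice were adults housed with littermates. RNA sequencing gave 3 libraries per genotype, and the labels do not say for each library which mouse it came from, so errors cover the spread between libraries.

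Cytokines of the type I and type II families bind receptor chains that carry Janus kinases (JAKs). The kinases phosphorylate STAT factors, which move to the nucleus and bind DNA elements known as gamma-activated sites. STAT5 is the main factor downstream of interleukin-2 (IL-2) and IL-7, and STAT6 is the main factor downstream of IL-4, the cytokine that drives follicular B cells toward MHC class II and CD23 expression and class switching. Cish and the Socs genes are among the early targets of these factors, and their proteins bind receptors or kinases and dampen the signal. Their transcripts can rise after cytokine signaling, but their level alone does not show that such signaling took place.

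The plainest sequence feature found near these genes was in Cish. Promoter sequences of RefSeq, from 250 bases before to 50 bases after each annotated transcript start (GRCm38.p6), were searched on both strands for the 9-letter gamma-activated site TTCNNNGAA, for the wider form with 4 bases between the arms, which STAT6 can also bind, and for the cAMP-response element TGACGTCA with its inner bases TGACG, whose matches include those within TGACGTCA. All 10 genes had an entry, with 13 windows among them. The sequences below are those with a match to TTCNNNGAA or TGACGTCA among the 10 genes, shown so that the spacing of the elements can be read, and capitals mark the matching letters.
Cish: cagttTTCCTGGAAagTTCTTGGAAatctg
Socs3: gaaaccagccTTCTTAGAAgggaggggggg
Jak1: ggagcagcttcTGACGTCAcgggggctggg

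The Cish sequence lies at chr9:107296654-107296683 on the plus strand, within an annotated exon of Cish. It held a pair of TTCNNNGAA matches in tandem, at bases 1 to 9 and 12 to 20 counted from the transcript start. At least 1 match was present in 8.3% of all 32851 promoter windows, whereas 150 windows, or 0.457%, held 2 or more. The Socs3 sequence, at chr11:117969501-117969530 on the minus strand, held 1 match at bases -154 to -146 and lies in no annotated exon. The Jak1 sequence, at chr4:101265306-101265335 on the minus strand, held TGACGTCA at bases -101 to -94 and also lies outside annotated exons. This 8-letter element was present in 1.79% of all windows.

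TTCNNNGAA was found in 2 of the 10 genes, Cish and Socs3. The wider form, with 4 bases between the arms and present in 6.95% of all windows, was found in 0 of the 10 genes. The short element TGACG, present in 20.8% of all windows, was found in 4 of them, namely Cish (from base -97), Stat5a at the second of its annotated starts, Stat6 (from base -33) and Jak1. A match describes letters in a window and is no evidence of binding, and the absence of a match says only that these letters are not in this window.

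**Figure D1:**
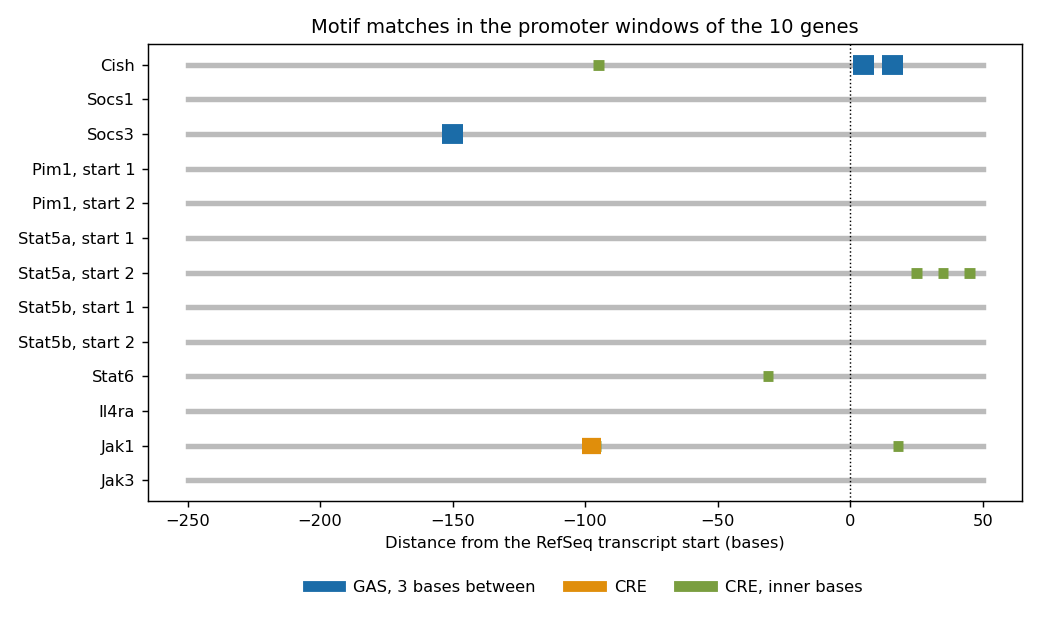
Motif matches in the 13 promoter windows of the 10 genes, drawn by distance in bases from the RefSeq transcript start (dotted line at 0), with 1 row per annotated start. Blue marks TTCNNNGAA (a gamma-activated site), orange marks TGACGTCA (the cAMP-response element) and green marks its inner bases TGACG. Blue appears in the Cish row, as a pair just after the start, and in the Socs3 row, before the start.

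Total counts ranged from 8452460 to 10944833 per library, and 10514 genes passed the filter on low counts, all 10 genes among them. Levels are given as CPM, counts scaled to a common library size. A gene was called where edgeR's quasi-likelihood test gave an adjusted p under 0.05 over all tested genes, and differences are log2 fold changes of WT over KO with their SE. Of all tested genes, 191 were called, of which 137 were higher and 54 lower in WT. One library stood apart from the rest. On the first principal component, which held 40% of the variance of the 500 most variable genes, WT replicate 2 scored 32.5 and the other libraries scored between -8.18 and -4.33. Gpr174 itself measured 127.6 CPM ± 7.43 (SD, n = 3) in WT and 99.95 CPM ± 0.205 in KO cells. Because the libraries read the 3′ ends of transcripts, reads can fall outside the exchanged sequence, so these values do not check the genotype.

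The sort was checked by markers. Summed follicular B cell markers were 4962 to 5276 CPM in WT and 5630 to 5778 CPM in KO libraries, with 9 of 10 listed markers in the table and 1 of them, Cd79b, called lower in WT. Cr2, which encodes CD21/35, was counted at 981 to 1166 CPM although the label gives the cells as CD21/35-. Summed T cell markers were 14.5 to 15.0 CPM in WT and 9.01 to 16.1 CPM in KO (8 of 9 in the table), and summed NK cell markers were 8.17 to 15.6 and 7.10 to 8.18 CPM (6 of 7 in the table). Summed myeloid markers were 38.7 to 58.6 CPM in WT and 39.0 to 44.7 CPM in KO (8 of 8 in the table), and dendritic cell markers 19.6 to 29.7 and 17.9 to 24.1 CPM (5 of 6). Plasma cell markers summed to 289 to 321 CPM in WT and 298 to 344 CPM in KO (5 of 5), and marginal zone B cell markers to 1263 to 1339 and 1233 to 1429 CPM (6 of 6). Erythroid markers summed to 2679 to 4714 CPM in WT and 3011 to 7569 CPM in KO (4 of 7), and 0 of 5 basophil and mast cell markers had a row. Among the defining markers absent from the table were Ncr1 of NK cells and Trbc2 of T cells. Cd3g, not tested, was counted 10, 14 and 11 times in WT and 0, 5 and 6 times in KO replicates 1 to 3. The 6 T cell markers that were tested were not called, and their WT and KO values overlapped. In bulk RNA, fewer cells of a type and less RNA per cell cannot be told apart.

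Among the feedback inhibitors, Cish was several times higher in WT cells and Socs1 values overlapped. Socs3 separated the groups by less and was not called in the fit without replicate numbers. Cish encodes an SH2-domain protein of the SOCS family that is induced by STAT5. It was counted 33, 45 and 42 times in WT replicates 1 to 3 and 8, 13 and 5 times in KO replicates 1 to 3, a total of 120 against 26 reads. These counts correspond to 3.02, 5.37 and 4.77 CPM in WT and 0.728, 1.42 and 0.487 CPM in KO libraries. Every WT library lay above every KO library, and KO replicate 2 was the KO library nearest to the WT range. The means were 4.38 CPM ± 1.22 (SD, n = 3) in WT and 0.878 CPM ± 0.483 in KO cells. The log2 fold change was 2.32 ± 0.59 (SE), with a 95% interval of 1.11 to 3.52, which corresponds to a 4.98-fold higher level in WT. Cish was called higher.

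The values of Cish rest on few reads. In the fits that each left out 1 library the log2 fold change of Cish stayed between 2.03 and 2.81, but the call was kept only without WT replicate 1 and lost without WT replicate 2, WT replicate 3 or any of the 3 KO replicates. It was also lost in limma-voom. Cish lies on chromosome 9 at 107296026 to 107302784 (mm10, plus strand) and is overlapped on the opposite strand by Gm17040 and Gm17041, which have no row in the table. The use of strand in counting was not stated, so reads of the opposite strand cannot be told apart from those of Cish.

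Socs3, which encodes an inhibitor best known for blocking receptors that signal through STAT3, measured 74.0, 127 and 108 CPM in WT replicates 1 to 3 and 42.6, 70.5 and 61.5 CPM in KO replicates 1 to 3. The groups did not overlap, although WT replicate 1 lay close to KO replicate 2. The means were 103 CPM ± 26.9 (SD, n = 3) and 58.2 CPM ± 14.3, and the log2 fold change was 0.83 ± 0.27 with a 95% interval of 0.16 to 1.49. In the fit without replicate numbers, Socs3 was not called with all 6 libraries and was called without WT replicate 1, where the log2 fold change was 1.02. With the replicate number added to the fit of all 6 libraries, Socs3 was called higher in WT (0.82 ± 0.095). The labels do not state that equal numbers pair mice. The gene lies on chromosome 11 at 117966079 to 117970047 on the minus strand.

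Socs1 encodes an inhibitor of JAK catalytic activity that is induced by interferons and by IL-4. It measured 4.21, 7.87 and 6.36 CPM in WT and 5.55, 7.85 and 7.12 CPM in KO libraries. The groups overlapped over most of their range. The means were 6.15 CPM ± 1.84 (SD, n = 3) in WT and 6.84 CPM ± 1.17 in KO cells, with a log2 fold change of -0.16 ± 0.32. The 95% interval ran from -0.82 to 0.50. The sign of this small difference turned without WT replicate 1, to 0.06. The gene lies on chromosome 16 at 10782240 to 10785536 on the minus strand.

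**Figure D2:**
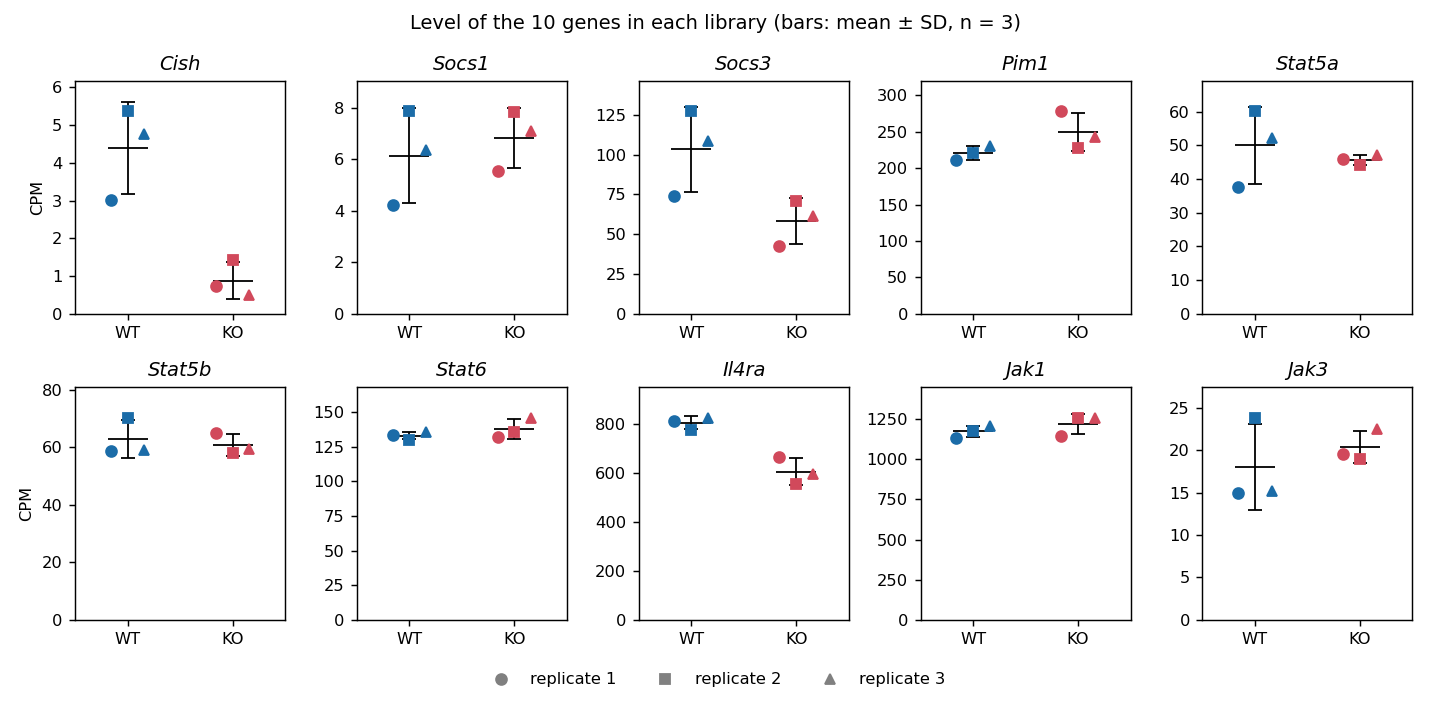
Level in CPM of each of the 10 genes in each library, WT in blue and KO in red, with a marker shape for each replicate number. Each panel has its own axis from 0, and black bars give the mean ± SD (n = 3). The WT and KO points are separate for Cish, Socs3 and Il4ra and overlap for the other 7 genes.

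Pim1, a serine/threonine kinase gene that STAT5 and STAT3 induce and that supports lymphocyte survival, had the opposite sign to Cish. It measured 211, 221 and 231 CPM in WT and 278, 228 and 243 CPM in KO libraries. The groups overlapped, since KO replicate 2 fell below WT replicate 3, and KO replicate 1 was the highest of all. The means were 221 CPM ± 10.1 (SD, n = 3) and 249.6 CPM ± 25.7, and the log2 fold change was -0.18 ± 0.08 (95% interval -0.34 to -0.01), not called. Pim1 lies on chromosome 17 at 29490753 to 29496112 on the plus strand, with Gm26885 overlapping on the opposite strand.

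Il4ra was the receptor gene of the group and differed between genotypes with little spread. It encodes the α-chain of the IL-4 and IL-13 receptors, activates STAT6 and is itself a target of STAT6. Its level was 811, 775 and 825 CPM in WT and 663, 555 and 597 CPM in KO libraries. All WT libraries exceeded all KO libraries, and the gap between the groups was wider than the range within WT. The means were 803.8 CPM ± 25.9 (SD, n = 3) and 604.8 CPM ± 54.1. The log2 fold change was 0.41 ± 0.07 (95% interval 0.27 to 0.55), a 1.33-fold higher level in WT. The call was kept in all 6 fits that left out a library, where the log2 fold change ranged from 0.35 to 0.48, and in all 7 of the other settings tried. Il4ra lies on chromosome 7 at 125552120 to 125579474 on the plus strand, with Gm44876 on the opposite strand.

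The STAT genes among the chosen genes gave overlapping values in WT and KO cells. Stat6, the transducer of IL-4, measured 133, 130 and 135 CPM in WT and 132, 136 and 146 CPM in KO libraries, with a log2 fold change of -0.05 ± 0.09 (95% interval -0.23 to 0.12). Stat5a measured 37.7, 60.1 and 52.2 CPM in WT and 45.9, 44.0 and 47.1 CPM in KO libraries, with a log2 fold change of 0.13 ± 0.14 (-0.17 to 0.42). Stat5b, which encodes a close relative of STAT5A, measured 58.8, 70.4 and 59.0 CPM in WT and 65.1, 58.0 and 59.4 CPM in KO libraries, with a log2 fold change of 0.04 ± 0.11 (-0.19 to 0.28). In all 3 genes the groups overlapped, and WT replicate 2 gave the highest value of both Stat5 genes. Without that library the log2 fold changes turned to -0.03 for Stat5a and -0.05 for Stat5b. Stat5a (chromosome 11, 100859351 to 100885169, plus strand) overlaps Stat3 on the opposite strand, and Stat5b lies beside it at 100780731 to 100850724 on the minus strand. Stat6 (chromosome 10, 127642986 to 127660957, plus strand) overlaps Nab2 on the opposite strand.

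The JAK genes among the chosen genes also overlapped between genotypes. Jak1, which pairs with most cytokine receptors, measured 1135, 1178 and 1207 CPM in WT and 1145, 1260 and 1254 CPM in KO libraries, with a log2 fold change of -0.06 ± 0.06 (95% interval -0.18 to 0.07). Jak3, the kinase bound by the common γ-chain, measured 15.0, 23.9 and 15.2 CPM in WT and 19.6, 19.0 and 22.5 CPM in KO libraries, with a log2 fold change of -0.18 ± 0.20 (-0.60 to 0.24). The groups overlapped in both genes, and the interval for Jak3 was the wider. Jak1 lies on chromosome 4 at 101152367 to 101265282 on the minus strand and overlaps Gm12785 on the same strand and Raver2 and Gm24468 on the opposite strand. Jak3 lies on chromosome 8 at 71676296 to 71690575 on the plus strand and overlaps Insl3 on the same strand.

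Over the group as a whole, 2 of 10 genes (Cish and Il4ra) were called higher in WT by edgeR and the other 8 were not called. With the same tests, 1.30% of all tested genes were called higher, 0.514% lower and 1.82% in either direction. DESeq2 also called 2 of the 10 genes and limma-voom called 1. WT and KO values did not overlap in 3 of the 10, against 16.7% of all tested genes. Because the genes were chosen with this contrast known, nothing is read from these shares. The log2 fold change was above 0 in 5 of 10 genes and the median was -0.005, beside -0.003 over all tested genes.

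**Figure D3:**
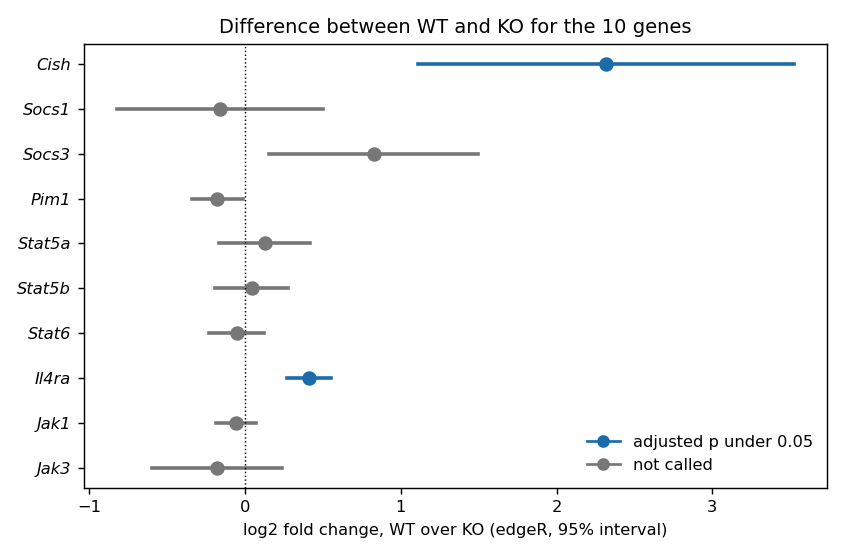
Log2 fold change of WT over KO for the 10 genes, with 95% intervals from edgeR. Blue marks genes with an adjusted p under 0.05 over all tested genes and gray marks genes that were not called. Cish lies farthest right at 2.32 with the widest interval, Socs3 is next at 0.83, Il4ra is at 0.41 with a narrow interval, and the other 7 genes lie between -0.18 and 0.13.

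The libraries did not contribute evenly within the groups. WT replicate 1 was the lowest WT library in 8 of the 10 genes, while WT replicate 2 was the highest in 6 and WT replicate 3 in 4. Among KO libraries, replicate 1 was the highest in 3 genes and the lowest in 4, replicate 2 the highest in 4 and the lowest in 5, and replicate 3 the highest in 3 and the lowest in 1. The low values of WT replicate 1 included both Cish and Socs3, and the part of this library in the differences was not tested beyond leaving it out.

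**Figure D4:**
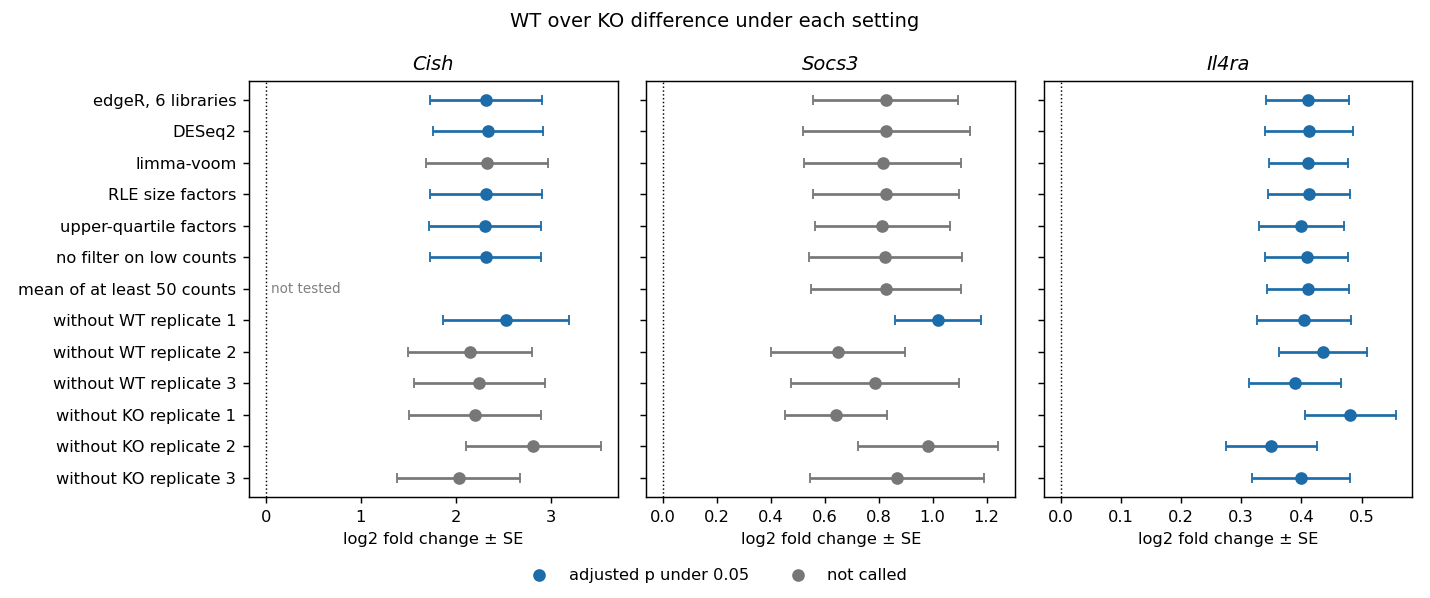
Log2 fold change (± SE) of WT over KO for Cish, Socs3 and Il4ra with all 6 libraries, under the other tools, scalings and filters (unpaired fits), and without each library in turn. Blue points have an adjusted p under 0.05 and gray points do not. Il4ra is blue throughout, Cish turns gray in 5 of the 6 fits that leave out a library and in limma-voom and was not tested at a mean of at least 50 counts, and Socs3 is blue in 1 of the fits drawn, that without WT replicate 1.

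To see how far the rest of the pathway moved, 68 further genes were listed by their roles, with earlier results of these data known. Of these, 55 were tested, 3 were higher in WT (Il21r, Cd86 and Pim3), 1 was lower (Ifnar2), and their median log2 fold change was 0.02. Over all tested genes, 1.30% were called higher, 0.514% lower and 1.82% in either direction. Of the 10514 tested genes, 1248 had an unadjusted p under 0.05 in edgeR, and WT and KO values did not overlap in 16.7%. These shares are the background for the counts of each list that follow. For the further genes the adjusted p from edgeR is given. Because these lists were also written with earlier results known, their p-values and calls are a description and no independent evidence.

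The cytokines themselves were almost uncounted. Of 13 listed, 5 had a row in the table and 2 passed the filter. Ifng, the gene for interferon-γ, had a log2 fold change of -1.37 ± 0.84 (adjusted p = 0.562 in edgeR) and was at 0 in WT replicate 2. Osm, a STAT5 target that encodes oncostatin M, had a log2 fold change of -0.21 ± 0.45 (adjusted p = 0.904 in edgeR). Neither was called, with a median of -0.79, and 0 had an unadjusted p under 0.05. DESeq2 and limma-voom also called 0. Il2, Il10 and Il15 had too few counts to be tested, and Il4, Il6, Il7, Il13, Il21, Csf2, Tslp and Lif had no row.

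Of 22 cytokine receptor chains, 21 were tested and Il13ra1 was not. Besides Il4ra, Il21r was higher and Ifnar2 was lower in WT. Il21r encodes the receptor for IL-21, a T cell cytokine that acts on B cells. It measured 478, 504 and 575 CPM in WT and 420, 366 and 437 CPM in KO libraries, and the groups did not overlap. Its log2 fold change was 0.35 ± 0.08 (adjusted p = 0.0136 in edgeR). This call was lost without WT replicate 3 (adjusted p = 0.119 in edgeR) and without KO replicate 2 (0.156). Il21r lies next to Il4ra on chromosome 7, at 125603429 to 125633570.

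Ifnar2 encodes a chain of the type I interferon receptor. It measured 107, 96.5 and 100.02 CPM in WT and 123, 139 and 139 CPM in KO libraries, all KO libraries above all WT libraries. The log2 fold change was -0.40 ± 0.09 (adjusted p = 0.0158 in edgeR). The call was lost without WT replicate 3 (adjusted p = 0.063 in edgeR), KO replicate 2 (0.108) or KO replicate 3 (0.141), and Gm21970 overlaps the gene on the same strand. Its promoter window held 1 TTCNNNGAA match at bases -214 to -206, shown here with its surroundings at chr16:91372559-91372588 on the plus strand.
Ifnar2: tgccaaggccTTCCTGGAAgaagagagtac

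Of the 4 further genes called, 3 had a promoter entry, and 1 of these, Ifnar2, held TTCNNNGAA. Cd86 was without an entry.

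The receptors with the largest positive values were not called. Il2rb, the IL-2 receptor β-chain, had a log2 fold change of 0.55 ± 0.41 (adjusted p = 0.665 in edgeR), and Il7r, the IL-7 receptor α-chain, had 0.54 ± 0.45 (adjusted p = 0.714). Il2ra, the IL-2 receptor α-chain and a STAT5 target, had a log2 fold change of -0.16 ± 0.36 (adjusted p = 0.910 in edgeR). Il2rb, at 2.64 to 5.84 CPM, is best known from T and NK cells. Of the 6 NK cell markers in the table, 3 were tested and none was called by edgeR, with log2 fold changes of 1.09 ± 0.41 for Gzma, 0.83 ± 0.78 for Eomes and -0.26 ± 0.65 for Nkg7. WT and KO values did not overlap in Gzma, the 1 marker of the 3 with an unadjusted p under 0.05, and overlapped in Eomes and Nkg7. The sort on B cell surface markers was meant to remove such cells, and their part in the Cish difference was not tested. The median over all 21 tested receptors was 0.11, with 15 above 0, beside 5217 of all 10514 tested genes. WT and KO values did not overlap in 4 of the 21, against 16.7% of all tested genes. These were Il4ra, Il21r and Il7r, with higher values in WT, and Ifnar2, with lower values in WT.

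Of the 11 JAK kinases and STAT factors, 0 were called by edgeR, and DESeq2 and limma-voom also called 0. Unadjusted p in edgeR was under 0.05 for 2 of them, Stat4 and Stat3, beside 1248 of all 10514 tested genes. Stat4, a transducer of IL-12, had a log2 fold change of 0.29 ± 0.11 (adjusted p = 0.227 in edgeR). Stat3, a transducer of IL-6 and IL-21, had 0.23 ± 0.10 (adjusted p = 0.382 in edgeR), and it was called without WT replicate 1 (adjusted p = 0.0184). At the other end, Stat2 had -0.22 ± 0.11 (adjusted p = 0.452 in edgeR), followed by Jak3. The median was -0.002. WT and KO values did not overlap in 3 of the 11, against 16.7% of all tested genes. These were Stat4 and Jak2, with higher values in WT, and Stat2, with lower values in WT.

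Among 16 inhibitors of the pathway, the call was that of Cish, which had been chosen for its difference and whose call did not hold in limma-voom or in 5 of the 6 fits without a library. Of the 13 outside the chosen genes, 0 were called by edgeR, DESeq2 or limma-voom. An unadjusted p under 0.05 in edgeR was found for 3 of them, beside 1248 of all 10514 tested genes. Socs2, the closest relative of Cish and like it a STAT5 target, had a log2 fold change of 0.42 ± 0.55 (95% interval -0.72 to 1.56, adjusted p = 0.833 in edgeR) at levels of 0.872 to 3.86 CPM. Pias4, a SUMO ligase that inhibits STATs, had -0.42 ± 0.16 (adjusted p = 0.263 in edgeR). Ptpn6, which encodes the phosphatase SHP-1, had -0.18 ± 0.06 (adjusted p = 0.192 in edgeR). Ptpn2, the gene for a phosphatase that acts on JAK1 and STATs, was chosen for mention after its values were seen. It had 0.39 ± 0.12 (adjusted p = 0.0954 in edgeR). WT and KO values did not overlap in 4 of the 13, against 16.7% of all tested genes. These were Ptpn2 and Socs7, with higher values in WT, and Pias4 and Ptpn6, with lower values in WT. The median of the 16 was 0.05.

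The STAT5 target genes lay on both sides of 0. Of 15 tested, 1 (Cish) was called higher and the other 14 were not called. The log2 fold change was above 0 in 5 of the 15, beside 5217 of all 10514 tested genes, with a median of -0.12. Outside the chosen genes, 0 of 11 were called by edgeR or DESeq2 and 1 by limma-voom, Mcl1, a survival gene of the BCL2 family (log2 fold change -0.24, adjusted p = 0.0449 in limma-voom). Of these 11, 2 had an unadjusted p under 0.05 in edgeR, Mcl1 (-0.23 ± 0.07, adjusted p = 0.0888) and Ccnd3, beside 1248 of all 10514 tested genes. Without WT replicate 2, edgeR also called Mcl1 lower in WT (log2 fold change -0.30, adjusted p = 0.0153). Ccnd3, which encodes cyclin D3, had -1.15 ± 0.38 (adjusted p = 0.147 in edgeR), with no overlap between the groups. Pim2 had -0.42 ± 0.22 (adjusted p = 0.469 in edgeR). Mcl1, Ccnd3 and Pim2 all had higher means in KO cells. Myc measured 79.7, 246 and 126 CPM in WT and 108, 137 and 135 CPM in KO libraries, where the WT mean rests on replicate 2.

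STAT6 target genes of B cells were mixed in direction. Of 11 listed, 10 were tested and Il4i1 had no row. Cish, Il4ra and Cd86 were called higher and 0 were called lower, with a median of 0.02. Cish and Il4ra were among the chosen genes, and the study had already reported Cd86 as higher in WT cells at 1 h. These calls were thus known beforehand and are no independent evidence on STAT6. Outside the chosen genes, 1 of 7 was called by edgeR and 2 by DESeq2. Cd86, the gene for a costimulatory ligand of CD28, measured 66.1, 78.0 and 68.5 CPM in WT and 42.6, 45.1 and 51.4 CPM in KO libraries. The groups did not overlap, the log2 fold change was 0.61 ± 0.12 (adjusted p = 0.00289 in edgeR), and the call was kept whichever library was left out. Fcer2a, which encodes CD23 and is a classical target of IL-4, had the opposite sign, at -0.27 ± 0.07 (adjusted p = 0.0526 in edgeR). It was called lower in WT by DESeq2 (adjusted p = 0.0356), and in edgeR with upper-quartile factors (adjusted p = 0.0499), with no filter (0.0388), at a mean of at least 50 counts (0.0374) and without KO replicate 2 (0.0269). Batf, an AP-1 family factor, had a log2 fold change of -0.83 ± 0.30 (adjusted p = 0.209 in edgeR). WT and KO values did not overlap in Fcer2a and Batf either, with lower values in WT.

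Of the 3 Pim kinases, Pim3 was called higher in WT, in contrast to the values of Pim1 and Pim2 given above. Pim3 measured 172, 189 and 189 CPM in WT and 138, 135 and 143 CPM in KO libraries. The groups were far apart relative to their spread, with a log2 fold change of 0.40 ± 0.08 (adjusted p = 0.00617 in edgeR). The call was lost without KO replicate 2 (adjusted p = 0.0519 in edgeR).

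**Figure D5:**
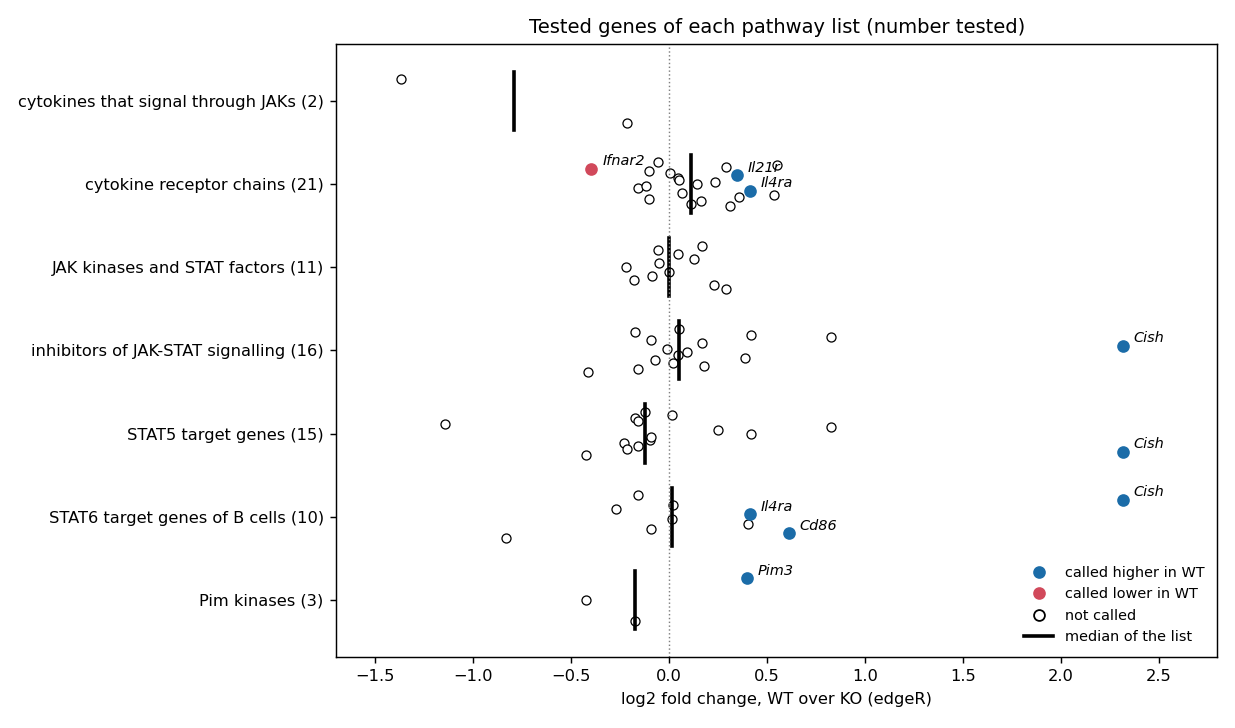
Log2 fold change of WT over KO (edgeR) for every tested gene of the 7 pathway lists, with the number tested beside each name. Filled points are called genes (blue higher, red lower in WT), open points are not called, and black bars are list medians. A gene may stand in several lists. Cish lies far to the right of the other points in the 3 lists that hold it, and the medians lie between -0.18 and 0.11 apart from -0.79 for the 2 cytokines.

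Lastly, the genes whose pattern over the 6 libraries was most like that of Cish were sought. Likeness was the root mean square difference of log2 CPM centered on each gene's mean, over 9681 genes whose mean was 20 counts or more, where a smaller value is more alike. Among the 5 nearest were Nr4a2 (0.346), Fos (0.354), Nr4a1 (0.412) and Fosl2 (0.443), against a median of 1.17 over all genes compared. Nr4a1 and Nr4a2 encode orphan nuclear receptors and Fos and Fosl2 encode AP-1 subunits, all of which are known as immediate early genes. Nr4a2 measured 216, 277 and 248 CPM in WT and 53.7, 77.3 and 65.6 CPM in KO libraries, in the same order of libraries as Cish within WT. Fos measured 28.5, 56.9 and 41.0 CPM in WT and 12.5, 15.6 and 11.3 CPM in KO libraries, in the same order of libraries as Cish in both groups. Nr4a2 did not follow that order within KO. Nr4a1 followed it within WT and not within KO. Fosl2 followed it within KO and not within WT, where it measured 24.6, 36.4 and 45.8 CPM. The order of Cish within KO rests on 8, 13 and 5 reads. Its order within WT was also that of Socs1, Socs3 and Stat5a, so that order is not particular to the nearest genes.

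The other 9 chosen genes stood farther from Cish by this measure than the 5 nearest genes. Socs3 ranked 55th with a difference of 0.739 and Il4ra ranked 599th with 0.986. Stat5a (1.09, rank 2081) and Stat5b (1.13, rank 3379) were followed by Jak1 (1.17, rank 4994), Stat6 (1.19, rank 5566), Socs1 (1.20, rank 6142), Pim1 (1.24, rank 7211) and Jak3 (1.26, rank 7576). With a prior count of 0.5 in place of 2, 4 of the 5 nearest genes were shared. With profiles scaled to unit SD, which ignores the size of the difference, 0 of 5 were shared. The likeness describes 6 libraries that share the contrast used to choose Cish. Because the unscaled measure depends on the size of that contrast, the ranks are no separate evidence on which genes move with Cish.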

How the data were processed

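RNA from sorted follicular B cells of 3 WT and 3 KO libraries was sequenced by the authors with a kit that reads transcript 3′ ends, aligned with STAR to mm10 and counted per gene with HTSeq (submitters' processing notes and methods). Versions, annotation and strand setting are not given in the sources used here. The deposited values are raw read counts, neither normalized nor pooled. Of the sample columns, 0 were unused, and 0 rows lacked a gene name. Reads carry no molecular identifiers, so errors do not separate reads from molecules. Within groups, chi-square per degree of freedom between libraries was 6.89 to 10.9, so none were copies.

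Counts were filtered with filterByExpr, scaled by TMM and compared with edgeR 4.0.16 (R 4.3.3) by the robust quasi-likelihood F test, two-sided, with Benjamini-Hochberg adjustment over all tested genes and a threshold of 0.05. The SE was the absolute log2 fold change over the square root of F, and CPM used TMM-scaled library sizes. The tests were run on simulated counts with log2 fold changes of 1 or 2 in either direction and no outlying library. That check does not cover smaller differences or a library such as WT replicate 2. Alternatives were DESeq2 1.42.0, limma-voom (limma 3.58.1), RLE and upper-quartile factors, no filter, a mean of at least 50 counts, the replicate block and omission of each library. The 10 genes and all lists were chosen with earlier results of these data known. Named were these 10, each list's called genes, its 2 highest and 2 lowest and its untested genes, the 5 genes most like Cish, and Gpr174. Of the genes that met this rule, 1 is not reported here. Gene positions and exons are from GENCODE M21 (GRCm38, the assembly of mm10). Promoter windows instead use RefSeq starts, which for Cish and Socs3 lie inside the GENCODE gene bounds. A match placed before such a start can therefore lie within those bounds.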

Additional observations from a re-analysis of the deposited data

How the results depend on the processing

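Read depth limits Cish, whose KO value rests on 26 reads. Over the fits that each left out 1 library, the genes called ranged from 91 to 183 (191 with all), with 113 without KO replicate 2 and 91 without KO replicate 3, the chosen genes called from 1 to 3, cytokine receptor chains from 1 to 3, JAK kinases and STAT factors from 0 to 1, inhibitors from 0 to 2, STAT5 targets from 0 to 2, STAT6 targets from 2 to 3, and Pim kinases from 0 to 1. These fits had fewer samples. limma-voom called 1 of the chosen genes and 0 inhibitors. At a mean of at least 50 counts, where Cish was not tested, these were 1 and 0, with 0 STAT5 targets. DESeq2 called 258 and limma-voom 196 of all genes. Differences reversed without WT replicate 1 (Socs1, 0.060) and without WT replicate 2 (Stat5a -0.028, Stat5b -0.047, Osm 0.058), and the cause was not tested. Their ranges over these fits were -0.38 to 0.060 for Socs1, -0.028 to 0.30 for Stat5a, -0.047 to 0.096 for Stat5b and -0.54 to 0.058 for Osm. Over all settings the median of all genes lay between -0.012 and 0.002.

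Replicate numbers are not stated to pair mice, and same-numbered libraries correlated by 0.0498, 0.0136 and 0.0432, though 6 of 6 correlated best with their own number, a hint from the data. With the replicate block, 281 genes were called, among them 3 of the chosen genes, 2 inhibitors and 2 STAT5 targets, as Socs3 (0.82 ± 0.095, SE) was added, and STAT6 targets called were 4, as Fcer2a (-0.27) was added.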
